A study of Sus scrofa with 4 samples.

Results

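AP-1 is a transcription factor built from FOS and JUN proteins, and its genes are among the immediate early genes, which respond to hormones, serum and stress. The 10 genes described here were the protein-coding genes named FOS, FOSB, FOSL1, FOSL2, JUN, JUNB, JUND, EGR1, ATF3 and MYC, out of 16192 protein-coding genes. They were chosen by name, not by their values. Subcutaneous preadipocytes were isolated from 5-day-old male piglets of the Chinese Erhualian breed, grown to confluence and differentiated in culture. D0 was the confluent culture without the hormone cocktail, and D2 was taken after 2 days with dexamethasone (a glucocorticoid), 3-isobutyl-1-methylxanthine (which raises cAMP) and insulin. D4 followed after another 2 days with insulin alone in the growth medium, and D8 was reached in growth medium without added hormones. RNA of 3 piglets was pooled in equal amounts into 1 library per stage, so that there were no replicates, no test between stages was possible, and the stage, the medium and the library cannot be told apart.

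FOS and JUN proteins carry a basic region that binds DNA and a leucine zipper through which they pair. JUN proteins can pair with each other or with a FOS protein, whereas FOS proteins need a partner, and the pairs bind a short palindromic DNA element. Immediate early genes are transcribed within minutes of a stimulus through MAP kinases, serum response factor and cAMP response element binding protein. Most of their transcripts are short-lived, so that a sample taken days later is past the initial burst. The time from the last change of medium to sampling is not given in the sources used here. A sustained level and a response to fresh medium therefore cannot be told apart. In cultured preadipocytes, FOS, JUN and MYC are known to respond to the induction of differentiation.

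Values are FPKM, fragments per kilobase of a gene, set relative to the library total. The libraries held between 54128151 and 75387428 counted fragments, and 1 signal recognition particle RNA took 12.4% to 17.1% of them. Intervals in brackets are 95% counting intervals, which cover counting error only and leave out how piglets or cultures vary. An mRNA was taken as reliably expressed with FPKM of 1 or more in 3 or more libraries, and 9191 were. Of the 10 genes, 8 passed this limit, while FOSB and FOSL1 did not. EGR1 passed through D2, D4 and D8 and was under 1 at D0, so that a gene of its kind could only pass by being higher later. The same held for genes of the lists below that were under 1 at D0, among them MT1A, ZBTB16, MLXIP and DUSP4. Such genes could not count as lower than at D0. In the labelled cell type, 8 preadipocyte markers had summed FPKM of 644, 989, 979 and 674 in the order D0, D2, D4, D8. The 8 adipocyte markers, among them PPARG, PLIN1 and FABP4, summed to 122, 484, 1715 and 2066. From D4 to D8 that sum was carried by FABP4, with FPKM of 853 and 1557, while 5 of the 6 reliably expressed ones were lower, 3 of them at least 2-fold, as PPARG was with 51.9 and 25.8. Markers of leukocytes, endothelium, mesothelium and muscle had low sums. The 6 leukocyte markers summed to 3.81, 7.67, 9.04 and 5.43 from D0 to D8. Most of this was CD14, with FPKM of 3.14, 5.64, 7.54 and 2.78. CD163 had 0.270 at D0 and 1.42 at D2, while PTPRC did not exceed 0.0712. The 5 endothelial markers summed to at most 2.65, at D0, where PECAM1 had 2.56, and CDH5 did not exceed 0.0450. The 2 mesothelial markers summed to at most 0.133, the muscle gene MYOG did not exceed 0.0269, and the 4 epithelial markers rose from 5.19 to 26.3, mostly through KRT8. The 5 mural and myofibroblast markers, led by ACTA2 and TAGLN, which fibroblasts in culture also express, summed to 6114, 660, 507 and 4789, so that they were lowest at D2 and D4. In these mixed cultures, fewer cells of a type and less RNA per cell cannot be told apart.

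The FOS family split into one gene that rose under the cocktail, one that was high throughout and a pair that was scarce. FOS, the founding member, lies on chromosome 7 at chr7:98449508-98451971 (Sscrofa11.1, plus strand). Its FPKM was 1.49 at D0 (1.24 to 1.77), 9.83 at D2 (9.07 to 10.6), 9.66 at D4 (9.01 to 10.3) and 4.46 at D8 (3.95 to 5.02). FOS was therefore low in confluent preadipocytes, high at both D2 and D4, and in between at D8. The level at D2 was 6.62 times that at D0, a log2 ratio of 2.72 (2.45 to 3.01), and only 81 of the 9191 mRNAs reached that ratio. Between D2 and D4 the log2 ratio was -0.03 (-0.18 to 0.13), so that no difference was detectable beyond counting error. At D8, FOS remained 3.00 times the D0 level.

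FOSL2 encodes Fra-2, a FOS protein without the strong activation domain of FOS. It lies at chr3:110820403-110842903 on the minus strand, and was the most abundant FOS family gene in every library, with FPKM of 39.8, 33.3, 33.4 and 18.1 from D0 to D8. It was nearly level from D2 to D4 and lowest at D8. The log2 ratio of D8 to D0 was -1.13 (-1.17 to -1.10), and 221 of the 9191 mRNAs were at or below it.

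FOSL1 encodes Fra-1, a related protein that is typical of proliferating and migrating cells. It lies at chr2:6430158-6436173 on the plus strand. Its FPKM was 2.42 at D0 (2.16 to 2.71), 0.732 at D2 (0.570 to 0.927), 0.894 at D4 (0.738 to 1.07) and 0.981 at D8 (0.790 to 1.20). FOSL1 was thus highest in confluent preadipocytes, 3.31 times the level at D2, and the intervals of D2, D4 and D8 overlapped. An assembled antisense transcript on the minus strand shares 2018 bases with FOSL1 and had FPKM of 1.20, 0.541, 0.762 and 0.837, also highest at D0. The library kit keeps the strand, but whether the counting used it is not given in the sources used here, so that reads of the overlap may belong to either gene.

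FOSB, which like FOS has a full activation domain, lies at chr6:51836780-51844531 on the plus strand. It stayed far under 1 in all libraries, with FPKM of 0.0143, 0.0352, 0.255 and 0.223, which rest on 5, 9, 88 and 56 reads. The level at D4 was 17.8 times that at D0. On the log2(FPKM + 0.01) scale the ratio was 3.45, and it was 0.31 with a pseudocount of 1, since the values are so small. FOSB therefore had more reads at D4 and D8 than before, at the lowest level of the 10 genes in every library.

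**Figure D1:**
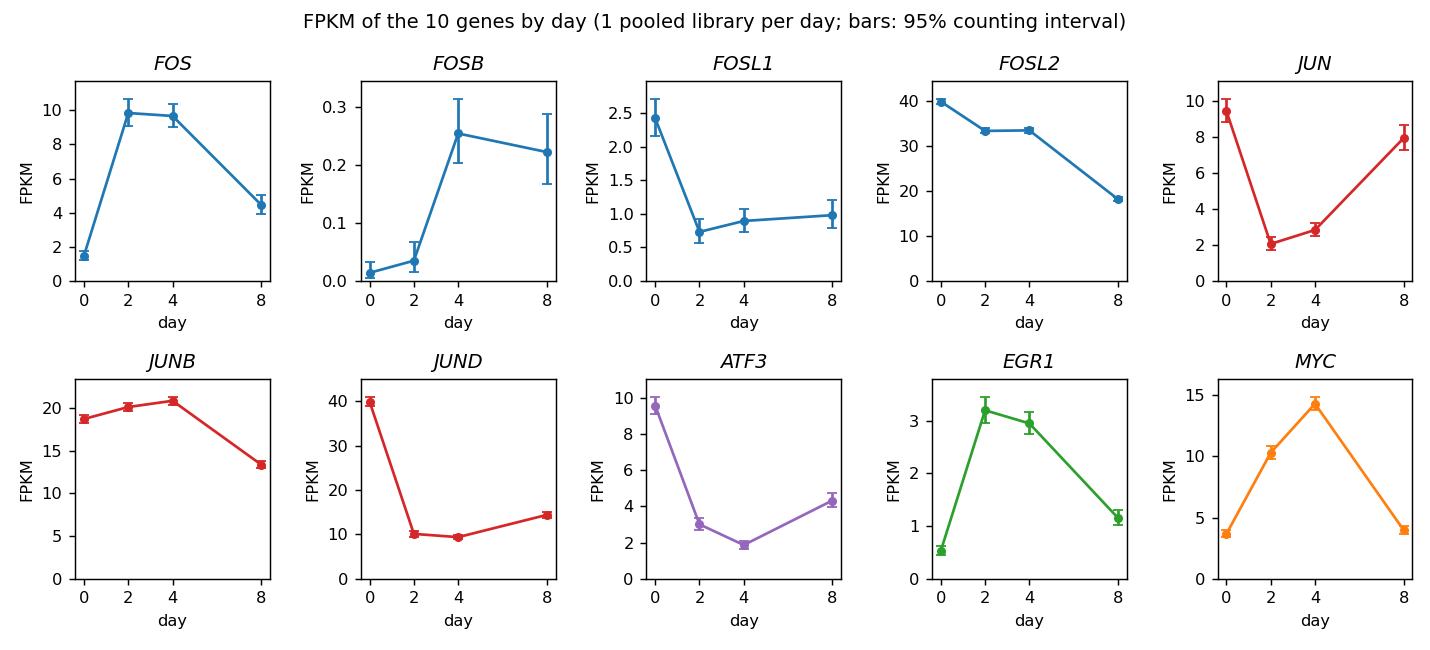
FPKM of the 10 genes against day, 1 point per pooled library, with a 95% counting interval as bars and a separate axis from 0 for each gene. FOS, EGR1 and MYC were high at D2 and D4, with FOS at 9.83 and 9.66, whereas JUN, JUND and ATF3 were high at D0 and low at D2 and D4, with JUND at 39.9 against 10.1 and 9.38.

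Within the JUN family, JUN and JUND fell to about the same extent at D2 while JUNB did not. JUN, the strongest activator of the family, lies at chr6:153686425-153687635 on the plus strand. Its FPKM was 9.42 at D0 (8.80 to 10.1), 2.06 at D2 (1.73 to 2.43), 2.83 at D4 (2.49 to 3.20) and 7.92 at D8 (7.25 to 8.63). JUN was low while FOS was high, and at D8 it was close to where it started. The level at D0 was 4.58 times that at D2, a log2 ratio of -2.19 (-2.47 to -1.93). From D4 to D8 it rose 2.80-fold, a log2 ratio of 1.48 (1.26 to 1.71). For D8 against D0 the log2 ratio was -0.25 (-0.41 to -0.09), near the median of all reliably expressed mRNAs in that comparison, which was -0.18.

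JUND, the family member that is expressed in most resting cells, lies at chr2:59530991-59532846 on the plus strand. Its FPKM was 39.9 at D0 (38.9 to 41.0), 10.1 at D2 (9.50 to 10.7), 9.38 at D4 (8.88 to 9.91) and 14.4 at D8 (13.7 to 15.2). The fall at D2 was as steep as that of JUN, with a log2 ratio of -1.98 (-2.08 to -1.88), but only part of the level was back at D8. JUND at D8 was below D0 by a log2 ratio of -1.47 (-1.56 to -1.39), and 87 of the 9191 mRNAs were at or below that.

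JUNB, which activates less strongly than JUN and can oppose it, lies at chr2:66214086-66219435 on the minus strand. Its FPKM was 18.7, 20.1, 20.9 and 13.4 from D0 to D8, and its highest value was 1.56 times its lowest. No ratio of JUNB reached 2 in any comparison, and the widest was D8 against D4, with a log2 ratio of -0.64 (-0.70 to -0.59). The cocktail stage thus separated JUNB from JUN and JUND, for which D2 was 3.95 to 4.58 times lower than D0.

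The make-up of both families was set out by FPKM and by reads, since the lengths behind FPKM differ widely between members. The summed FPKM of the FOS family was 43.7, 43.9 and 44.2 in the first 3 libraries and 23.8 at D8. FOSL2 gave 91.0% of that sum at D0 and 75.8% at D2, while FOS gave 3.40% at D0 and 22.4% at D2. By FPKM the sum was thus level up to D4 with a larger part of FOS, which rests on a length of 1143 bases for FOS against 7476 for FOSL2. By reads, FOS gave 0.560% of the family at D0 and 4.30% at D2, FOSL2 gave 98.0% and 95.2%, and the family fell from 303 reads per 1000000 at D0 to 261 at D2. The JUN family summed to 68.1 at D0 and to 32.3, 33.1 and 35.7 from D2 on. Within it, JUND gave 58.6% at D0 and 31.3% at D2, whereas JUNB gave 27.5% and 62.3%. At D8 the shares were 40.3% for JUND, 37.5% for JUNB and 22.2% for JUN. The JUN family sum was 1.56 times the FOS family sum at D0 and 0.736 to 0.748 times at D2 and D4, and it was again the larger one at D8. By reads, the FOS family was the larger one in every library. These shares depend on the gene lengths behind FPKM, which were 1211 bases for JUN, 5350 for JUNB and 1856 for JUND, each equal to the full span of the gene. By reads, JUNB led the JUN family in every library, with 54.0% at D0 and 83.5% at D2. Transcript levels do not give the amount of protein or which pairs formed.

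**Figure D2:**
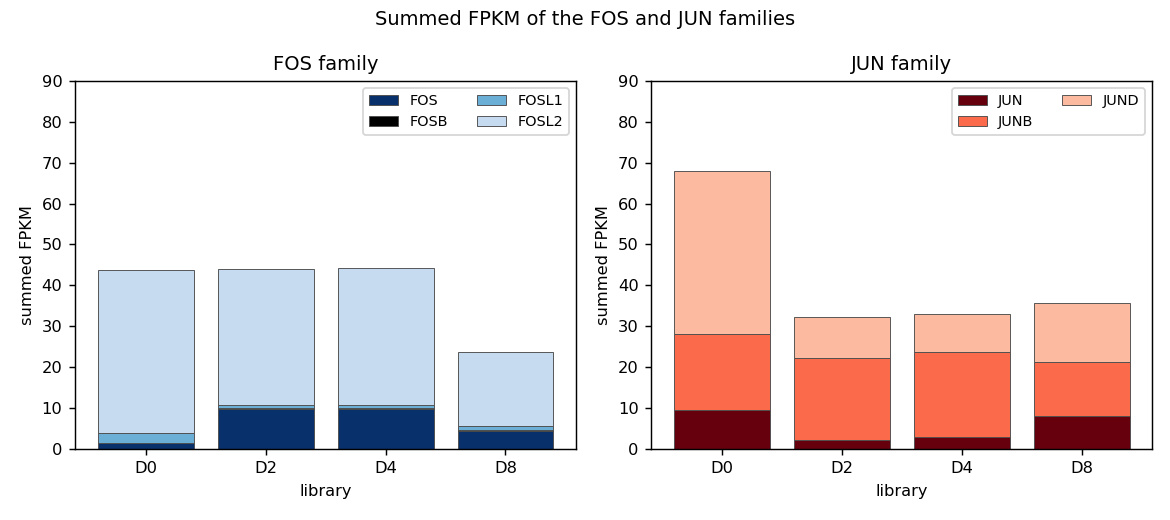
Summed FPKM of the FOS family (left) and the JUN family (right) in each library, with the part of each gene as a segment and the same axis from 0 in both panels. The FOS family stayed near 44 up to D4 and was 23.8 at D8, while the JUN family went from 68.1 at D0 to 32.3 at D2 as the JUND segment shrank.

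ATF3, a stress-induced leucine zipper protein that pairs with JUN proteins and often represses, lies at chr9:130772259-130829678 on the minus strand. Its FPKM was 9.58 at D0 (9.12 to 10.1), 3.01 at D2 (2.71 to 3.34), 1.87 at D4 (1.67 to 2.09) and 4.33 at D8 (3.97 to 4.72). Like JUN and JUND it was highest in confluent preadipocytes, but its lowest value came at D4, not D2. D4 against D0 gave a log2 ratio of -2.35 (-2.54 to -2.18), and D4 against D2 gave -0.69 (-0.91 to -0.47), at or below which lay 185 of the 9191 mRNAs. From D4 to D8, ATF3 rose 2.32-fold. At D8 its level was still below D0, by a log2 ratio of -1.14.

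EGR1, a zinc finger factor that binds GC-rich promoters and is induced by the same signals as FOS, lies at chr2:140440829-140445302 on the plus strand. Its FPKM was 0.529 at D0 (0.448 to 0.620), 3.19 at D2 (2.96 to 3.45), 2.94 at D4 (2.75 to 3.15) and 1.15 at D8 (1.01 to 1.31). The course was that of FOS at a lower level. The level at D2 was 6.04 times that at D0, a log2 ratio of 2.57 (2.34 to 2.86), which 98 of the 9191 mRNAs reached. From D4 to D8 the log2 ratio was -1.34 (-1.57 to -1.14). The D8 level was 2.18 times that at D0, and with a pseudocount of 0.1 that log2 ratio went from 1.11 to 0.996, just under 2-fold.

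MYC pairs with MAX and drives genes of growth and ribosome production. It lies at chr4:12455141-12460360 on the minus strand. Its FPKM was 3.67 at D0 (3.40 to 3.95), 10.3 at D2 (9.76 to 10.9), 14.3 at D4 (13.8 to 14.9) and 3.99 at D8 (3.66 to 4.34). MYC differed from FOS and EGR1 in that it went on rising to D4 and was back near its D0 level at D8. The level at D2 was 2.81 times that at D0 and the level at D4 was 3.90 times. The fall from D4 to D8 was a log2 ratio of -1.84 (-1.98 to -1.71), and 105 of the 9191 mRNAs were at or below it. Between D8 and D0 the log2 ratio was 0.12 (-0.04 to 0.29), so that no difference was detectable beyond counting error.

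The order of the 10 genes by FPKM changed from stage to stage. At D0 the order was JUND, FOSL2, JUNB, ATF3, JUN, MYC, FOSL1, FOS, EGR1 and FOSB, and the counting intervals of JUND and FOSL2, and of ATF3 and JUN, overlapped. At D2 it was FOSL2, JUNB, MYC, JUND, FOS, EGR1, ATF3, JUN, FOSL1 and FOSB. There, MYC, JUND and FOS had FPKM of 10.3, 10.1 and 9.83, and neighbours among them overlapped, as EGR1 and ATF3 did. At D4 MYC came right behind FOSL2 and JUNB, and FOS and JUND could not be ordered, nor could EGR1 and JUN. At D8 FOSL2 led, followed by JUND and JUNB with overlapping intervals, and then by JUN. FOS, ATF3 and MYC followed at 4.46, 4.33 and 3.99, with overlapping neighbours, and the intervals of EGR1 and FOSL1 also overlapped. As a share of the reliably expressed mRNAs with lower FPKM, JUND stood at 84.7% at D0 and 57.5% at D2, and FOS at 7.58% and 56.8%.

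Next, the 10 genes were set against all reliably expressed mRNAs in each of the 5 comparisons, at a ratio of at least 2 on the log2(FPKM + 0.01) scale. Between D2 and D0, 3 genes were higher, namely FOS, EGR1 and MYC, where 6.67% of the 9191 mRNAs were. EGR1, under 1 at D0, passed the limit only by being higher later. It could thus not count as lower in any comparison with D0. Another 3 of the reliably expressed genes were lower, namely JUN, JUND and ATF3, where 10.1% of mRNAs were, and FOSL1 was lower as well. Only JUNB and FOSL2 of the 8 stayed within 2-fold, with log2 ratios of 0.10 and -0.26. Between D4 and D2, 0 of the 8 reliably expressed genes were higher or lower, beside 4.24% and 0.838% of mRNAs, and FOSB alone of the 10 passed 2-fold. The largest ratios of the 8 were those of ATF3, with -0.69, and of MYC and JUN, with 0.47 and 0.46.

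Between D8 and D4, 2 genes were higher, namely JUN and ATF3, where 4.43% of mRNAs were. FOS, EGR1 and MYC were lower, that is 3 genes, where 10.1% of mRNAs were. The D8 library was lower as a whole, with a median log2 ratio of all reliably expressed mRNAs of -0.21 against D4, and median-ratio size factors brought that median to -0.00. With those factors, 6.43% of mRNAs were higher and 5.94% lower. FOS then had a log2 ratio of -0.90 and no longer reached 2-fold, while JUN, ATF3, EGR1 and MYC did.

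Comparisons of D4 and D8 with D0 share the D0 library with that of D2, so that a high or low value at D0 enters all of them. For D4 against D0, 3 genes were higher, again FOS, EGR1 and MYC, with log2 ratios of 2.69, 2.46 and 1.96, beside 10.4% of mRNAs. JUN, JUND and ATF3 were the 3 lower ones, with log2 ratios of -1.73, -2.09 and -2.35, beside 8.81% of mRNAs. For D8 against D0, 2 genes were higher, with log2 ratios of 1.58 for FOS and 1.11 for EGR1, beside 3.6% of mRNAs. The 3 lower ones were JUND, ATF3 and FOSL2, beside 3.68% of mRNAs. With median-ratio size factors, which gave 4.41% higher and 2.26% lower mRNAs, ATF3 and FOSL2 had log2 ratios of -0.99 and -0.98 and only JUND was left. FOSB was also higher and FOSL1 lower in both comparisons, with log2 ratios of 3.45 and -1.43 at D4 and 3.26 and -1.30 at D8, below the limit for reliable expression.

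**Figure D3:**
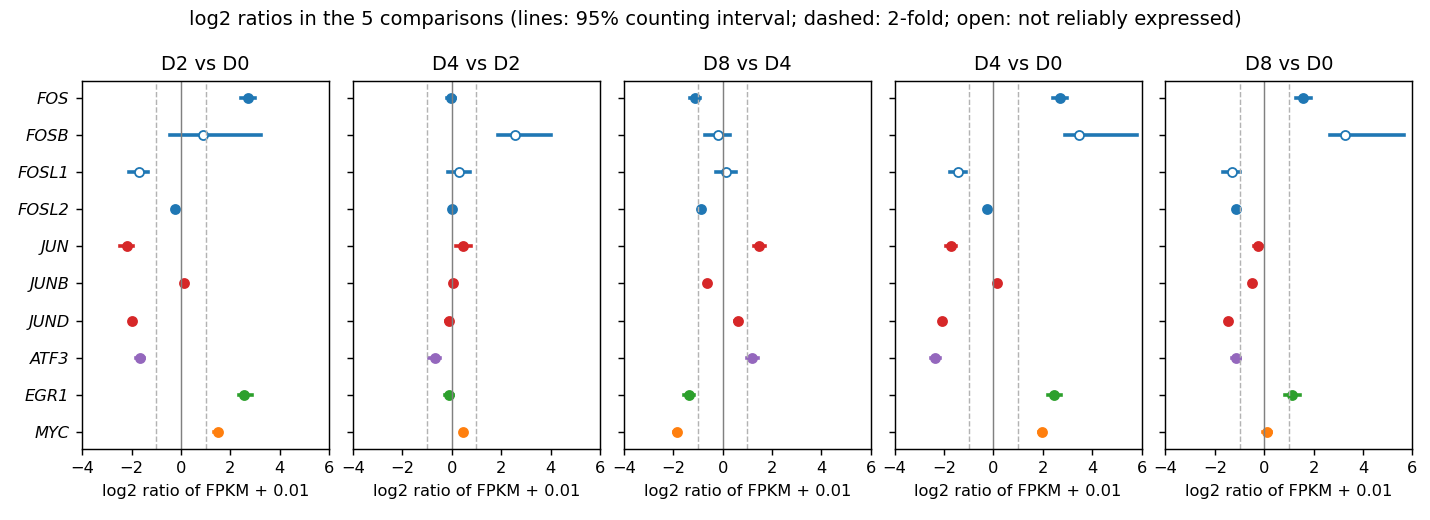
The log2 ratio of FPKM + 0.01 for each gene in the 5 comparisons, with the 95% counting interval as a line, dashed lines at 2-fold and open points for FOSB and FOSL1, which were not reliably expressed. In D2 vs D0 the points lie on both sides, from JUN at -2.19 to FOS at 2.72, whereas in D4 vs D2 all filled points lie between the dashed lines.

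The first and the last interval, D2 vs D0 and D8 vs D4, share no library. Genes that went up in the first went down in the last, and the reverse, for FOS, EGR1 and MYC (up, then down) and for JUN and ATF3 (down, then up), while JUND rose by a log2 ratio of 0.62 (0.51 to 0.73) from D4 to D8. This course was common in these cultures. Of the 613 mRNAs at least 2-fold higher at D2 than D0, 48.6% were at least 2-fold lower at D8 than D4. Of the 932 mRNAs at least 2-fold lower at D2, 30.7% were at least 2-fold higher at D8 than D4. Of the 5 mural and myofibroblast markers, ACTA2, TAGLN and CSPG4 were also low at D2 and D4 and high again at D8, with FPKM of 2907, 324, 225 and 2762 from D0 to D8 for ACTA2. DES, with 436, 37.7, 4.05 and 35.7, stayed far below its D0 level, and RGS5, with 0.156, 0.142, 0.742 and 0.352, was highest at D4. Their part in the values of JUN, JUND and ATF3 was not tested.

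**Figure D4:**
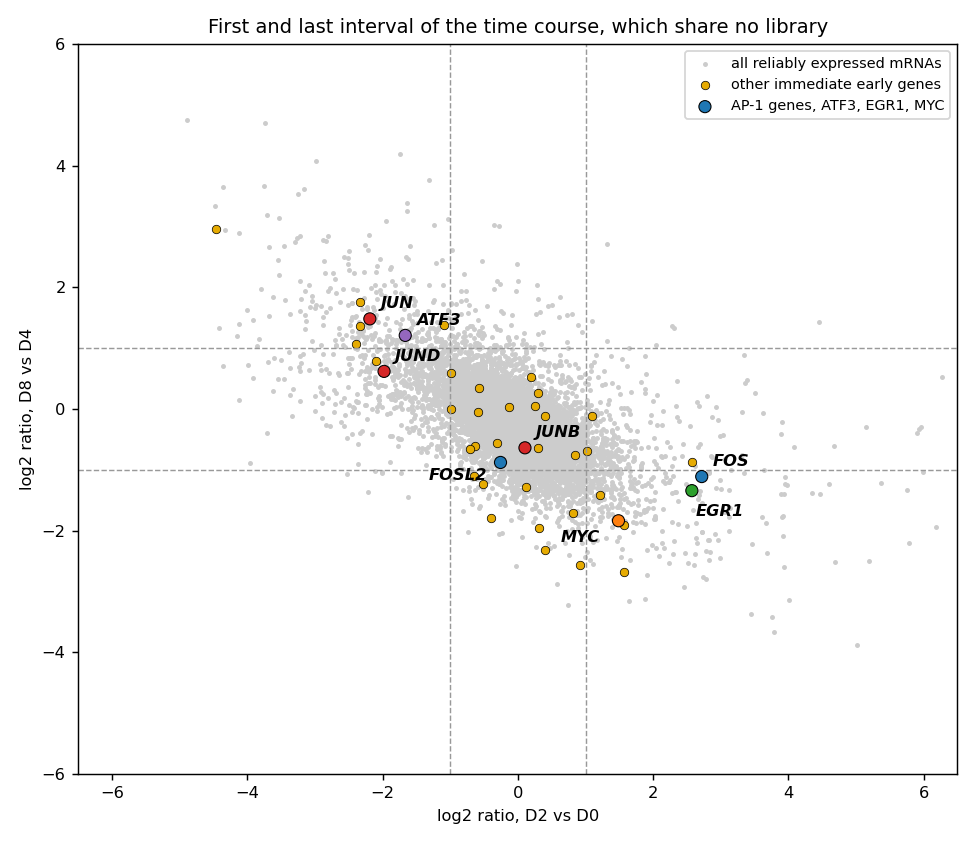
The log2 ratio of D2 to D0 (horizontal) against that of D8 to D4 (vertical) for all reliably expressed mRNAs (grey), 34 other immediate early genes (yellow) and the 8 reliably expressed genes of the set (large points, named), with dashed lines at 2-fold and 3 mRNAs outside the plotted range. FOS, EGR1 and MYC lie at the lower right, and JUN, JUND and ATF3 at the upper left, along the slope of the grey points.

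Other immediate early genes split in both directions as well. Of 45 on the list, 34 were reliably expressed. Between D2 and D0, 6 were higher and 6 were lower, beside 6.67% and 10.1% of all reliably expressed mRNAs. The median log2 ratio was -0.01, beside -0.03 for all reliably expressed mRNAs. The highest ratios were those of SGK1, a kinase induced by glucocorticoids, with FPKM of 9.64 at D0 and 57.2 at D2, and of SIK1, a kinase induced by cAMP, with 1.11 and 3.33. SGK1 and GADD45B, among others, also stand on the list of glucocorticoid and cAMP response genes, so that the lists are not independent. The lowest were those of CTGF, a matricellular protein, with 44.5 at D0 and 2.01 at D2, and of RHOB, a small GTPase of the cytoskeleton, with 6.11 and 1.15. From D4 to D8, 5 were higher and 11 lower, beside 4.43% and 10.1% of all mRNAs. EGR2, EGR3 and EGR4, the paralogs of EGR1, did not exceed FPKM of 0.416 in any library.

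Glucocorticoid and cAMP response genes are textbook targets of dexamethasone and of a rise in cAMP. Of 11 reliably expressed, 7 were higher and 0 were lower at D2 than D0, beside 6.67% and 10.1% of all mRNAs. The median log2 ratio was 2.57. MT1A, a metallothionein, had FPKM of 0.459 at D0 and 11.3 at D2, and ZBTB16, a zinc finger repressor, had 0.199 and 4.60. Both were under 1 at D0, so that they passed the limit for reliable expression only by being higher later. CREM, a cAMP-responsive factor, and GADD45B, a stress gene, had the lowest ratios, at -0.71 and -0.57. At D8, 6 of the 11 were still higher than at D0, as FOS and EGR1 were, beside 3.6% of all mRNAs.

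MAP kinases act upstream of FOS and EGR1, and feedback inhibitors dampen them. Of 20 reliably expressed genes of the MAP kinase cascade, 0 were higher and 2 were lower at D2 than D0, beside 6.67% and 10.1% of all mRNAs, so that the share of lower ones was near the background. These were MAP2K1, the kinase that activates ERK, with FPKM of 21.1 and 7.23, and MAPK7, which encodes ERK5, with 3.46 and 1.34. The highest ratios were those of MAP3K1, at 0.76, and RPS6KA3, at 0.59. Among 10 reliably expressed feedback inhibitors, 3 were higher and 1 was lower, beside the same 6.67% and 10.1% of all mRNAs. Of the higher ones, DUSP4 had FPKM of 0.445 at D0 and 1.07 at D2. Being under 1 at D0, DUSP4 could only pass the limit by being higher later. DUSP6, the phosphatase that removes the activating phosphates of ERK, had FPKM of 3.36, 14.9, 15.9 and 6.94 from D0 to D8. SPRY2, an inhibitor of receptor signalling, had 1.16, 4.99, 9.85 and 1.84. Both were high at D2 and D4, as FOS, EGR1 and MYC were. DUSP14 went the other way, with 7.77, 1.62, 1.56 and 3.48, and DUSP16 had a log2 ratio of -0.83.

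The list of serum response factor, its partners and its targets was mostly lower, and the targets led this. Of 12 reliably expressed, 0 were higher and 7 were lower at D2 than D0, beside 6.67% and 10.1% of all mRNAs. The median log2 ratio was -1.31. The lower ones were SRF itself, at -1.01, and targets such as actin and smooth muscle genes. The ELK and NAB genes of the list did not reach 2-fold, the lowest of them being at -0.96. With a pseudocount of 0.1, 6 of the 12 were lower. The lowest were the smooth muscle genes CNN1, with FPKM of 94.3 at D0 and 4.22 at D2, and TAGLN, with 2767 and 297, which also stands on the mural and myofibroblast list. At the other end, ELK4, a partner of serum response factor, had a log2 ratio of 0.06, and NAB2, a repressor that binds EGR1, had -0.02. NAB2 had FPKM of 21.0, 20.7, 36.3 and 13.9 from D0 to D8.

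Among 18 reliably expressed bZIP partners of AP-1 and their relatives, 2 were higher and 2 were lower at D2 than D0. This stands beside 6.67% and 10.1% of all mRNAs, so that the share of lower ones was near the background. The median log2 ratio was -0.19. ATF5, a stress-responsive relative of ATF4, was among the higher ones, with FPKM of 6.29, 17.9, 8.74 and 4.41 from D0 to D8. MAFF, a small MAF protein without an activation domain, had 10.3, 2.26, 1.92 and 4.46, and BATF3, which pairs with JUN proteins, had 7.65, 3.28, 2.20 and 3.27. MAFF and BATF3 were thus highest at D0, like JUND and ATF3, while ATF5 had its peak at D2.

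Genes with known AP-1 control were mostly lower, and this list holds several matrix and cytokine genes. Of 20 reliably expressed, 4 were higher and 12 were lower at D2 than D0, beside 6.67% and 10.1% of all mRNAs. The median log2 ratio was -1.55. From D4 to D8, 7 were higher and 4 lower, beside 4.43% and 10.1% of all mRNAs. IL11, a cytokine, had FPKM of 26.1 at D0 and 1.26 at D2, and MMP1, a collagenase, was lower as well, with FPKM of 64.2 at D0 and 6.38 at D4. MMP2, a gelatinase, went up from 99.3 to 371, and HMOX1, which degrades heme, from 39.7 to 116. At D8, IL11 was still at 1.11 and MMP1 was at 19.8, whereas MMP2 and HMOX1 were at 96.8 and 34.2, near their D0 levels. These values do not show which AP-1 pair, if any, acted on a gene. For D8 against D0, 2 were higher and 11 lower, beside 3.6% and 3.68% of all mRNAs.

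MYC rose at D2, while most of its partners and of the growth genes linked to it stayed within 2-fold. Of 9 reliably expressed genes of the MYC, MAX and MXD network, 1 was higher and 0 were lower at D2 than D0, beside 6.67% and 10.1% of all mRNAs. The higher one was MLXIP, a glucose-sensing relative, with FPKM of 0.421 and 1.94. Its log2 ratio was 2.18, above the 1.49 of MYC, but with FPKM under 1 at D0 it could only pass the limit by being higher later. MGA had a log2 ratio of 0.48. The lowest were MXD3, at -0.74, and MAX itself, at -0.35, with FPKM of 14.8 at D0 and 11.6 at D2. All 21 genes of ribosome biogenesis and growth that are linked to MYC were reliably expressed. At D2, 0 of them were higher and 2 lower than at D0, beside 6.67% and 10.1% of all mRNAs. The median log2 ratio was 0.10. The lower ones were LDHA, the lactate dehydrogenase, at -1.47, and NME1, a nucleoside diphosphate kinase, at -1.37. The highest were POLR1A, the large subunit of RNA polymerase I, at 0.60, and CAD, an enzyme of pyrimidine synthesis, at 0.51. From D2 to D4 the median was 0.28 and 18 of 21 had ratios above 1, beside a median of 0.09 for all mRNAs. For D4 against D0, 4 of the 21 were higher and 2 lower, beside 10.4% and 8.81% of all mRNAs. There, 17 had ratios above 1, and the median was 0.31, beside 0.06 for all mRNAs. From D4 to D8 the median was -0.51, beside -0.21 for all mRNAs, and 6 were lower and 2 higher, beside 10.1% and 4.43% of all mRNAs.

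Heat shock genes were examined because FOS, EGR1 and ATF3 also respond to handling. Of 10 reliably expressed, 0 were higher and 1 was lower at D2 than D0, beside 6.67% and 10.1% of all mRNAs. The median log2 ratio was -0.41. A part of handling in the values of FOS, EGR1 and ATF3 was not tested. The lower one was HSPB1, with FPKM of 96.7 at D0 and 28.0 at D2, followed by HSPA5, at -0.83. HSPD1 and HSPE1, the mitochondrial chaperonins, had the highest log2 ratios, at 0.70 and 0.67.

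**Figure D5:**
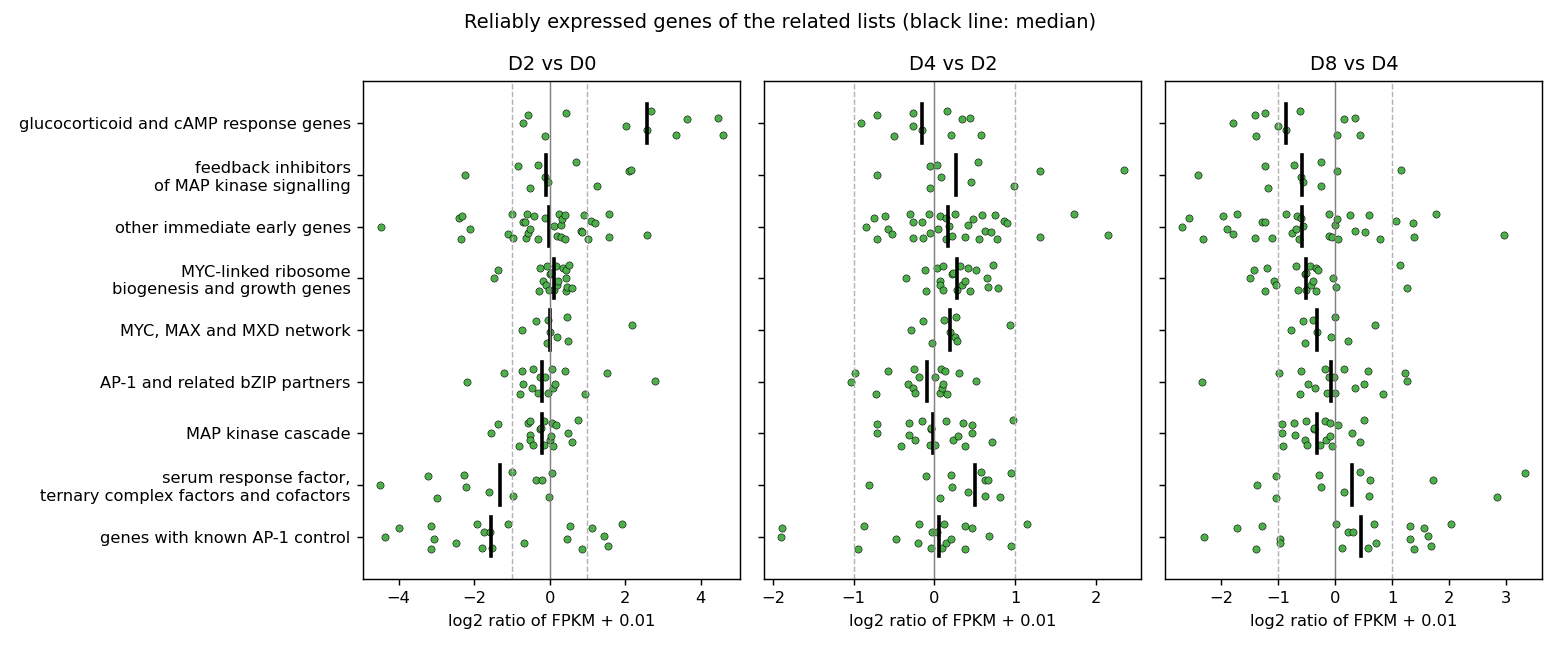
The log2 ratio of FPKM + 0.01 for each reliably expressed gene of 9 related lists in D2 vs D0, D4 vs D2 and D8 vs D4, with the median of each list as a black line and dashed lines at 2-fold. In D2 vs D0 the medians run from 2.57 for glucocorticoid and cAMP response genes to -1.55 for genes with known AP-1 control, and in D4 vs D2 they lie between -0.16 and 0.50.

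Finally, the mRNAs whose course over the 4 libraries was nearest to each gene were listed, by the distance between log2(FPKM + 0.01) values after centring. Over 4 points many mRNAs lie close to any course, so these are descriptions. Nearest to FOS were TTPA, FIBIN and NFIA, at distances of 0.11, 0.19 and 0.20, and nearest to EGR1 were ISOC1, SESN1 and NFIA. FOS and EGR1 were themselves 0.34 apart, the smallest distance between any pair of the 8 genes. MYC was nearest to PIGS, SNAI2 and EXOSC1. The courses of GLRX, AGTR1 and DAPK3 were nearest to that of JUN, and those of PLAUR, ERF and PDE1C to that of JUND. PLAUR, the urokinase receptor, had FPKM of 60.6, 15.9, 15.6 and 25.0 and also stands on the list of genes with known AP-1 control. ATF3 was nearest to CTH, CD151 and FAM71E1, and 0.49 from JUND. FOSL2 was nearest to CTSL, FGD5 and SLC25A25 and 0.46 from JUNB, whose nearest mRNAs were MAN1A2, MED30 and GALNT11 at distances of 0.03 to 0.04. The largest distance was that between FOS and JUN, at 3.98.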

How the data were processed

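After removing poor reads, the authors mapped the rest to Sscrofa11.1 with HISAT2 (2.0.5 in the submitters' processing notes) and deposited 1 FPKM value per gene and library. The gene counter and its use of strand are not given in the sources used here. The library kit was directional and rRNA was removed. SRPBM values of circular RNAs were not used, and 0 circular RNAs lay within the 10 genes.

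The 10 genes were found by symbol and biotype, and 10 of 10 matched RefSeq by symbol, start and end. The genes and the 18 lists were chosen with earlier results of these data known. Library totals were computed from tRNA genes with 1 read, 21 to 28 per library, and reads from the smallest whole gene length that made all 4 values whole. In data simulated for D2 vs D0, 1912 of 2000 genes got the simulated reads and 200 of 200 genes changed 4-fold were called. The simulation held counting error alone and no change near 2-fold, so that it checked the code and not how reliable the calls are. Ratios are log2(FPKM + 0.01), called at 2-fold or more with no test. Intervals of levels are exact Poisson, and those of ratios come from the exact binomial. All 5 comparisons used 1 library per stage. From each list of other genes, the 2 highest and the 2 lowest log2 ratios of D2 to D0 among reliably expressed genes were named, plus genes that define a list. One gene that this rule names is not reported here. The EGR1 paralogs, DUSP4, CD14, CD163 and PECAM1 were named after their values were seen. For likeness, the 3 nearest mRNAs were taken. Alternatives were pseudocounts of 0.1 and 1, no filter, a ratio of 1.5 and 3 other scalings. Python 3.11.15, numpy 2.4.6, pandas 2.3.3, scipy 1.17.1 and matplotlib 3.10.9 were used.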

Additional observations from a re-analysis of the deposited data

How the results depend on the processing

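Of 50 ratios of the 10 genes, 28 were at least 2-fold, and 12 of these were below 2-fold under at least one alternative, 9 of them only with a larger pseudocount. None of the other ratios passed 2-fold. The sign changed for 3 ratios, all near 0: FOSL2 and JUNB in D4 vs D2 and FOSB in D8 vs D4. Of 70 alternative counts of genes, 16 differed from those reported, 8 of them by over 1.5 times. With a pseudocount of 1, 1 gene was higher and 1 lower in D8 vs D4, in place of 2 and 3. This stands beside 3.18% and 5.16% of all reliably expressed mRNAs at that setting. In D8 vs D0, 1 was higher in place of 2 with pseudocounts of 1 and 0.1, beside 2.62% and 3.47% of mRNAs. With median-ratio size factors 1 was lower in D8 vs D0, in place of 3, beside 2.26% of mRNAs. Without the filter FOSB counted, so that 1 was higher in D4 vs D2, in place of 0, beside 4.24% of the reliably expressed mRNAs. At a ratio of 1.5, 5 were lower in D8 vs D4 and 1 in D4 vs D2, in place of 3 and 0. At that ratio, 25.9% and 2.96% of mRNAs were lower. No replicate could be left out. No paired analysis was possible because each stage has 1 library. FOSB, with 5 and 9 reads at D0 and D2, is limited by depth.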

Other observations

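A few leucine zipper and immediate early genes, chosen after their values were seen, are described here beside the 10 genes. ATF4, the effector of the integrated stress response, had FPKM of 211, 233, 141 and 253 from D0 to D8. Its target DDIT3, which encodes CHOP, an inhibitor of C/EBP proteins, had 62.0, 119, 60.2 and 144. ATF4 was lowest at D4, whereas DDIT3 was about as low at D0, with a log2 ratio of D4 to D0 of -0.04. Both were highest at D8, while ATF3, which is often induced with them, was highest at D0. ID1 and ID2, which block basic helix-loop-helix factors, had their highest values at D4, with FPKM of 303 and 15.3, and their lowest at D8, with 51.0 and 3.07. SOCS3, an inhibitor of cytokine signalling, had 7.09, 21.1, 11.7 and 1.81, with its peak at D2. KLF6 and CYR61 had the course of JUN, with FPKM of 30.6 and 195 at D0, 6.06 and 38.6 at D2, and 27.4 and 118 at D8.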
